A study of Mus musculus with 6 samples.

Results

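Skeletal muscle sarcomere genes were examined in RNA sequencing libraries of bone-forming cells that had been sorted from the skull vault (calvaria) of mouse pups aged 5 days. The set comprised 36 genes, chosen by symbol from a list of sarcomere proteins, calcium handling proteins and myogenic regulators, out of 27179 gene IDs in the count table. All 36 were matched to 1 ID each. The rule that lists them uses no measured value, but the set was chosen with earlier results of these data known.

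The study compared 3 libraries from mice with a conditional Cdc73 knockout (the gene is also known as Hrpt2) with 3 libraries from wildtype mice, all on the C57Bl/6J background. The sample titles call the first group Flox and the genotype label calls it KO. Both groups were digested with collagenase and sorted alike for GFP whose expression depended on Osteocalcin-Cre, a recombinase active in osteoblasts and the cells that derive from them. The alleles of the wildtype pups other than this reporter system are not listed, and neither is whether a library came from 1 pup or a pool, so p-values measure the spread between libraries, which may be technical. Markers of the labelled cell type were present, with the 14 osteoblast markers summing to between 237700 and 351800 CPM in every library. Most of this sum came from the collagen genes Col1a1 and Col1a2, which averaged 174000 and 103400 CPM over all libraries. Sp7 and Dmp1 of the same list averaged 185.7 and 250.6 CPM.

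A sarcomere is the contractile unit of striated muscle. Myosin thick filaments pull on actin thin filaments, troponins and nebulin on the thin filament govern the contact, and titin, desmin and the Z-disc proteins hold the array in place. Contraction starts when the voltage sensor of the surface membrane opens the calcium release channel of the sarcoplasmic reticulum, and ends when a calcium pump refills the store. Fibres mature by exchanging isoforms. Embryonic and perinatal myosins and cardiac actin come first, and adult fast or slow isoforms replace them around and after birth. Osteoblasts are not a muscle cell type, while muscles of the head attach to the skull.

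Transcripts of muscle fibre genes were present at low levels in all 6 libraries, and their amount varied several-fold between libraries of the same genotype. In knockout 1, 2 and 3 the 36 genes took 1220, 534 and 253 counts, and in wildtype 1, 2 and 3 they took 1461, 1478 and 419 counts. Relative to all counts of the library this was 74.48, 35.99 and 16.91 CPM (counts scaled to a library of 1000000 counts) in the knockout libraries, with exact binomial 95% intervals of 70.36 to 78.78, 33.0 to 39.18 and 14.89 to 19.13. In the wildtype libraries it was 69.59, 108.74 and 26.91 CPM, with intervals of 66.07 to 73.25, 103.27 to 114.43 and 24.39 to 29.61. These intervals cover counting error only. Each group thus held libraries with many and with few counts of these genes, and the groups overlapped.

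All further levels are CPM after TMM scaling, a correction for differences in library composition. On this scale the summed level was 73.2, 37.1 and 20.8 CPM in knockout 1, 2 and 3 and 63.9, 102.8 and 25.0 CPM in wildtype 1, 2 and 3. The means were 43.7 ± 26.8 CPM for knockout and 63.9 ± 38.9 CPM for wildtype (SD, n = 3 each). Within the knockout group the highest library exceeded the lowest 3.52-fold, and within the wildtype group 4.11-fold. In a bulk library fewer cells with these transcripts and less RNA per cell cannot be told apart. The GFP sort selected Osteocalcin-Cre cells, and whether these cells or others carried the muscle transcripts was not tested.

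**Figure D1:**
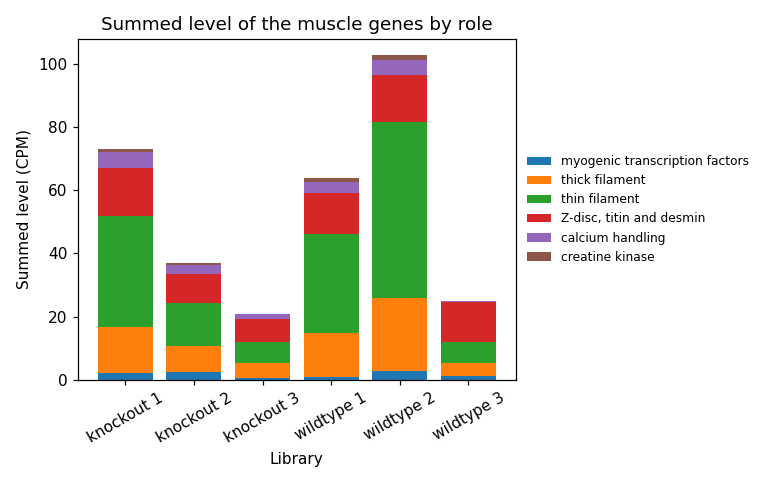
Summed level in CPM (vertical axis) of the 36 muscle genes in each library (horizontal axis), with colours for the roles of the genes. The highest bar (wildtype 2, 102.8 CPM) and the second lowest (wildtype 3, 25.0 CPM) belong to the same group.

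Most genes of the set shared the largest of these differences between libraries of a group. Of the 36 genes, 27 were higher in wildtype 2 than in wildtype 3 and 5 were lower, and 34 were higher in knockout 1 than in knockout 3 and 2 were lower. The share of all genes that differed in the same way was not counted, so whether these numbers are particular to muscle genes was not tested. Wildtype 2 held the highest level of 21 genes and knockout 1 that of 10, while knockout 3 held the highest level of 0 genes. Counts of 0 were found for 13 genes in wildtype 3, 7 in knockout 3, 6 in wildtype 2 and 2 in knockout 2, and for 0 genes in knockout 1 and wildtype 1. A count of 0 allows up to 3 counts, which is 0.131 to 0.247 CPM depending on the library. Counts were above 0 in every library for 19 of the 36 genes.

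**Figure D2:**
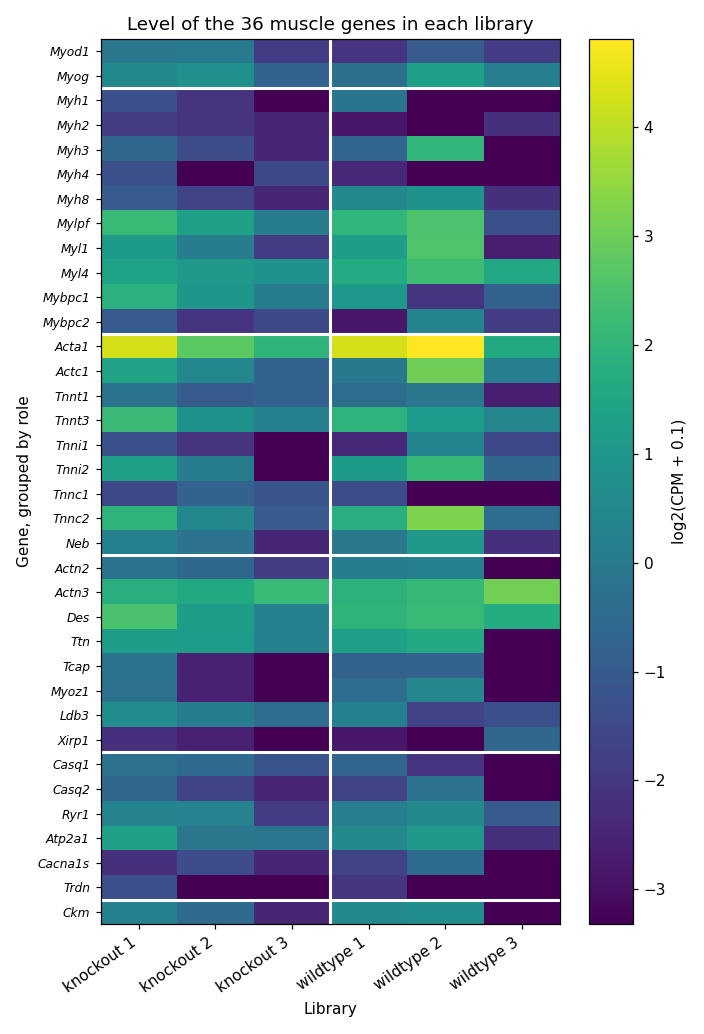
Level of each of the 36 muscle genes (rows, grouped by role) in each library (columns), as log2(CPM + 0.1). Most rows are darker (lower) in knockout 3 and wildtype 3 than in knockout 1, wildtype 1 and wildtype 2, while Actn3 is brightest in wildtype 3.

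Promoters of 27 of the 36 genes are in the RefSeq table of mouse promoters (GRCm38.p6, the assembly also known as mm10). The stretches shown are the 250 bases before the start of 4 genes described below, namely skeletal actin, cardiac actin, fast troponin C and myogenin. They are written 5′ to 3′ along the gene, and capitals mark matches to the E-box letters CANNTG, the core letters bound by MyoD and myogenin, and to the CArG box, the letters bound by serum response factor. Acta1 lies at chr8:123894776-123895025 on the minus strand, Actc1 at chr2:114052876-114053125 on the minus strand, Tnnc2 at chr2:164779735-164779984 on the minus strand and Myog at chr1:134289754-134290003 on the plus strand.
Acta1: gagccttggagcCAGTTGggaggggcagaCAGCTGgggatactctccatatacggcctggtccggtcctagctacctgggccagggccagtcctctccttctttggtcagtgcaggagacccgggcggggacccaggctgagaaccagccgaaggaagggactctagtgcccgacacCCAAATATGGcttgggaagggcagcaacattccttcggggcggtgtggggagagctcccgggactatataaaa
Actc1: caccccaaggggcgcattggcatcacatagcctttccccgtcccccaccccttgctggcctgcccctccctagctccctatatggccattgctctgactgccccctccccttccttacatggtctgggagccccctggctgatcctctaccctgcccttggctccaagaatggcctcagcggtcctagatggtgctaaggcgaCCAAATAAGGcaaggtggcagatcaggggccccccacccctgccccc
Tnnc2: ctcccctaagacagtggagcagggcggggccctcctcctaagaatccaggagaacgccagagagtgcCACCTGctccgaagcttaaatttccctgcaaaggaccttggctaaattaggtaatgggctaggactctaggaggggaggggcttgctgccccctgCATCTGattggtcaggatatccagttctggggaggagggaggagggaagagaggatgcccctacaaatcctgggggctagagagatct
Myog: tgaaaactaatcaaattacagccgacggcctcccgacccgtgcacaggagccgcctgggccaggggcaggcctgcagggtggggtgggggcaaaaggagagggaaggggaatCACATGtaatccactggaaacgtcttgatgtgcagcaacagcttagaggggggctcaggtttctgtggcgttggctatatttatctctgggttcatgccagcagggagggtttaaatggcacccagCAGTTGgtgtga

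On both strands, the letters CANNTG matched in 21 of the 27 promoters (77.8%), against 66% of the 27025 promoters of this length in the table. The narrower E-box CAGCTG, a subset of CANNTG, matched in 11 of 27, which is 40.7% against 12.8% of all promoters. The CArG box matched in 4 of 27 (Acta1, Actc1, Ldb3 and Myh4; 14.8% against 1.4%) and the MEF2 motif in 1 of 27 (Ttn; 3.7% against 0.5%). The letters GGAATG, the MCAT motif, and TATAAA each matched in 7 of 27 (25.9%), against 12.6% and 13.0% of all promoters. These are matches of letters and say nothing of binding in these cells. A link between them and the differences between libraries was not tested.

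The myogenic regulators Myod1 and Myog encode transcription factors that commit cells to muscle and drive their differentiation. Myog (gene ID 17928) measured 1.38, 1.60 and 0.494 CPM in knockout 1, 2 and 3 and 0.699, 2.30 and 1.02 CPM in wildtype 1, 2 and 3. The groups overlapped, and the log2 fold change of knockout over wildtype was -0.17 ± 0.64 (standard error). Myod1 had between 2 and 14 counts in each library and was not tested. Myog, with 6 to 33 counts per library, was highest in wildtype 2 and lowest in knockout 3, as was the sum of the set. It did not track Acta1 closely. The ratio of Acta1 to Myog counts was 14, 4.22 and 7.67 in the knockout libraries and 27.62, 12.18 and 2.94 in the wildtype libraries.

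Among thin filament genes, Acta1 (gene ID 11459, chromosome 8, 123891758 to 123894775), the actin of skeletal muscle fibres, was the most abundant of the 36. Its level was 19.3, 6.74 and 3.78 CPM in knockout 1, 2 and 3 and 19.3, 28.0 and 2.99 CPM in wildtype 1, 2 and 3. Knockout 1 and wildtype 1 were nearly equal, and both the highest and the lowest library were wildtype. Means were 9.95 ± 8.25 CPM for knockout and 16.8 ± 12.7 CPM for wildtype, a log2 fold change of -0.73 ± 0.72 (adjusted p = 0.607, edgeR's quasi-likelihood test). Without knockout 1 it was -1.67, and without wildtype 2 it was -0.18. Acta1 made up 26.4%, 18.2% and 18.2% of the set's counts in the knockout libraries and 30.3%, 27.2% and 11.9% in the wildtype libraries.

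Actc1 (gene ID 11464), the cardiac actin that fetal skeletal muscle also makes, gave 2.58, 1.25 and 0.494 CPM in the knockout libraries and 0.874, 8.21 and 1.02 CPM in the wildtype libraries. Wildtype 2 stood far above the other 5 libraries. The log2 fold change was -1.17 ± 0.89, and with wildtype 1 as the only control it was 0.74. As a share of Acta1 and Actc1 counts together, Actc1 took 11.8%, 15.7% and 11.5% in the knockout libraries and 4.3%, 22.7% and 25.4% in the wildtype libraries. The exact 95% interval of wildtype 1 (2.7% to 6.6%) lay below those of wildtype 2 (19.2% to 26.5%) and wildtype 3 (15.5% to 37.5%), so libraries of the same group differed beyond counting error. Longest open reading frames of both actins were 86.2% identical, and 0.0% of the 50-base stretches of Acta1 occurred unchanged in Actc1.

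Troponins are the calcium switch of the thin filament. Tnnc2 (gene ID 21925), fast troponin C, was at 3.84, 1.25 and 0.411 CPM in knockout 1, 2 and 3 and at 3.32, 9.25 and 0.657 CPM in wildtype 1, 2 and 3. Its groups overlapped, with a log2 fold change of -1.22 ± 0.89. On the opposite strand, exons of Ube2c covered 74.0% of Tnnc2 exon bases, and since strand use in counting is not given in the sources used here, reads of both genes may be mixed. Ube2c itself had 134 to 288 counts per library.

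Tnni2 (gene ID 21953), the fast inhibitory subunit, measured 2.40, 0.973 and 0 CPM in the knockout libraries and 2.06, 4.24 and 0.537 CPM in the wildtype libraries (log2 fold change -0.97 ± 0.99). Tnnt3 (gene ID 21957), fast troponin T, measured 4.56, 1.67 and 1.07 CPM in knockout 1, 2 and 3 and 3.76, 2.09 and 1.19 CPM in wildtype 1, 2 and 3. This left almost no difference between the group means (log2 fold change 0.06 ± 0.60). The slow troponins were scarcer, with 0 to 7 counts per library for Tnnc1, 0 to 17 for Tnni1 and 1 to 15 for Tnnt1. Neb, which encodes the giant thin filament ruler nebulin, had 1 to 29 counts per library and a log2 fold change of -0.56 ± 0.96.

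Fast isoforms made up most troponin counts in nearly every library. Tnnc2 took 94.1%, 72.0% and 55.6% of troponin C counts in knockout 1, 2 and 3 (64 of 68, 18 of 25 and 5 of 9 counts) and 92.7%, 100% and 100% in wildtype 1, 2 and 3 (76 of 82, 133 of 133 and 11 of 11). Tnni2 took 88.9% and 87.5% of troponin I counts in knockout 1 and 2, where knockout 3 had 0 counts of either gene, and 95.9%, 78.2% and 69.2% in the wildtype libraries. For troponin T the share of Tnnt3 ran from 68.4% in knockout 3 to 95.2% in wildtype 3. These shares compare read counts without a correction for transcript length.

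In the thick filament, libraries differed in the isoforms of the myosin heavy chain, the motor that pulls on actin. Myh3, the embryonic myosin, was read 9, 4 and 1 times in the knockout libraries, and the wildtype libraries held 12, 58 and 0 counts. Myh8, the perinatal myosin, had 7, 3 and 1 counts in the knockout libraries and 29, 24 and 2 in the wildtype libraries. The adult fast myosins Myh1, Myh2 and Myh4 together had 13, 4 and 4 counts in the knockout libraries and 21, 0 and 2 in the wildtype libraries. None of these 5 genes passed the filter on low counts, so none was tested.

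As a share of 6 myosin heavy chains (these 5 and the slow Myh7), Myh3 took 70.7% in wildtype 2 (58 of 82 counts, exact 95% interval 59.6% to 80.3%) and 19.0% in wildtype 1 (12 of 63, 10.2% to 30.9%). Adult fast myosins took 33.3% in wildtype 1 (22.0% to 46.3%) and 0 of 82 counts in wildtype 2, which allows a share of up to 3.66%. In knockout 1 adult fast myosins took 43.3% (13 of 30, 25.5% to 62.6%) and Myh3 30% (14.7% to 49.4%). The other 3 libraries had 4 to 16 myosin counts each, too few to separate the isoforms. Wildtype 1 and 2, with nearly the same number of muscle counts, therefore differed in myosin isoforms beyond counting error. Open reading frames of Myh1 and Myh2 were 90.9% identical, and 20.52% of the 50-base stretches of Myh1 occurred unchanged in Myh2, so counts may be shared among Myh1, Myh2, Myh4 and Myh8. For Myh3 the identity to Myh8 was 80.4%, with 1.63% of stretches shared.

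**Figure D3:**
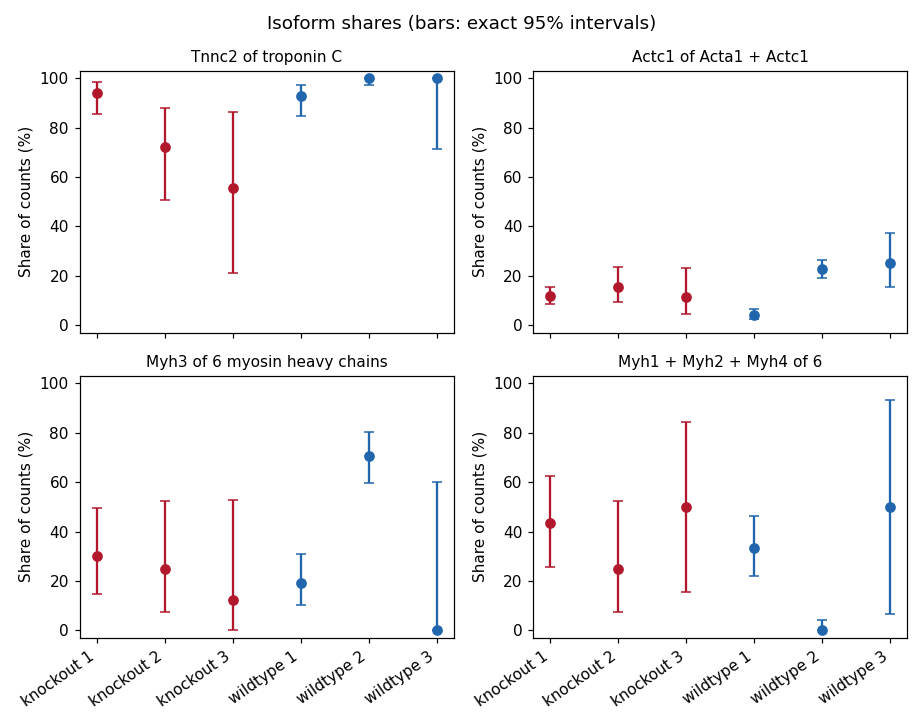
Share of counts in percent (vertical axes) taken by fast troponin C, cardiac actin, embryonic myosin and adult fast myosins among their isoforms in each library, with exact 95% binomial intervals as bars, knockout in red and wildtype in blue. Embryonic Myh3 takes 70.7% in wildtype 2 and 19.0% in wildtype 1, and wildtype 2 has 0 of 82 counts of adult fast myosins.

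The myosin light chains, which stabilise the lever arm of the heavy chain, were highest in wildtype 2. Mylpf (gene ID 17907), the fast regulatory chain, measured 4.38, 2.43 and 0.987 CPM in knockout 1, 2 and 3 and 4.07, 5.63 and 0.298 CPM in wildtype 1, 2 and 3. Myl1 (gene ID 17901), the fast essential chain, measured 2.04, 0.973 and 0.165 CPM in the knockout libraries and 2.19, 5.84 and 0.0597 CPM in the wildtype libraries. Wildtype 3 held the lowest level of both and wildtype 2 the highest. Log2 fold changes were -0.34 ± 0.80 for Mylpf, 0.27 with limma voom, and -1.29 ± 1.08 for Myl1.

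Myl4 (gene ID 17896), the light chain of embryonic muscle and heart atria, was the only gene of the 36 whose groups did not overlap. It measured 2.52, 1.95 and 1.73 CPM in knockout 1, 2 and 3 and 3.10, 4.73 and 2.87 CPM in wildtype 1, 2 and 3, from 21 to 71 counts per library. Group averages of 2.06 ± 0.409 and 3.57 ± 1.01 CPM differed by -0.78 ± 0.36 on the log2 scale, which was short of the threshold (adjusted p = 0.352, edgeR). Among all genes tested, 9.81% likewise had 3 knockout values under the lowest wildtype value, so 1 in 21 tested genes of the set is no more than the background. In Myl4, wildtype 3 did not drop as it did in the other light chains.

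Myosin binding protein C ties myosin filaments together. Mybpc1 (gene ID 109272), the slow type, measured 3.54, 1.88 and 0.987 CPM in the knockout libraries and 1.92, 0.139 and 0.478 CPM in the wildtype libraries. Its log2 fold change of 1.28 ± 0.81 was the highest of the set (adjusted p = 0.436, edgeR), and wildtype 1 lay above knockout 2 and 3. Without wildtype 1 it was 2.72. Wildtype 2, the library richest in the set's counts, held the lowest level of Mybpc1 with 2 counts. Mybpc2, the fast type, had 17 counts in wildtype 2 and 1 to 7 in the others.

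Among Z-disc and scaffold genes, Actn3 (gene ID 11474), the alpha-actinin of fast fibre Z-discs, measured 3.30, 2.99 and 4.36 CPM in knockout 1, 2 and 3 and 3.67, 4.24 and 8.36 CPM in wildtype 1, 2 and 3. Wildtype 3, which was poor in fibre genes, held the highest level, and Actn3 there made up 33.4% of all counts of the set against 4.5% in knockout 1. The log2 fold change was -0.61 ± 0.37 (adjusted p = 0.417, edgeR). Actn2, the alpha-actinin of all striated fibres, had 13, 8 and 2 counts in the knockout libraries and 22, 15 and 0 in the wildtype libraries.

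Des (gene ID 13346), which encodes the intermediate filament desmin of skeletal, heart and smooth muscle, measured 5.52, 2.22 and 1.07 CPM in the knockout libraries and 3.85, 4.45 and 3.16 CPM in the wildtype libraries. Here wildtype 3 stayed close to the other wildtype libraries, and the log2 fold change was -0.36 ± 0.51. Ttn (gene ID 22138), the giant spring titin, measured 2.22, 2.15 and 1.07 CPM in the knockout libraries and 2.32, 2.99 and 0 CPM in the wildtype libraries (0.05 ± 0.94, and -0.12 with library size alone). Ldb3, a PDZ and LIM protein of the Z-disc, measured 1.5, 0.973 and 0.658 CPM in the knockout libraries and 1.05, 0.209 and 0.298 CPM in the wildtype libraries (0.95 ± 0.71). The Z-disc genes Tcap and Myoz1 were at 0 counts in knockout 3 and wildtype 3, and Xirp1 had 9 counts in wildtype 3 and 0 to 2 elsewhere.

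Calcium handling genes were at the edge of detection. Atp2a1 (gene ID 11937), the fast-fibre calcium pump, measured 2.40, 0.834 and 0.823 CPM in knockout 1, 2 and 3 and 1.40, 1.95 and 0.119 CPM in wildtype 1, 2 and 3 (log2 fold change 0.25 ± 0.82). Exons of the antisense neighbour Rabep2, with 122 to 265 counts per library, covered 21.94% of Atp2a1 exon bases. The calcium release channel Ryr1 had 2 to 23 counts per library and a log2 fold change of -0.19 ± 0.74. Casq1 and Casq2, which store calcium, had 0 to 12 and 0 to 11 counts, the voltage sensor Cacna1s 0 to 9 and triadin (Trdn) 0 to 5, and these 4 were not tested. Ckm, the muscle creatine kinase that buffers ATP, had 18, 9 and 1 counts in the knockout libraries and 30, 22 and 0 in the wildtype libraries.

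Exons of 14 of the 36 genes overlapped those of a gene on the opposite strand. Apart from Tnnc2 and Atp2a1, the shared bases made up 0.06% (Myl4) to 19.98% (Cacna1s) of the exon bases.

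Compared per length of exon, Acta1 stood first of the 36 at 8.69 CPM per kilobase (mean of 6 libraries), followed by Tnnc2 at 3.90, Mylpf at 2.79, Actn3 at 1.55 and Tnnt3 at 1.51. Titin, with 1.79 CPM in all, reached only 0.0153 CPM per kilobase, nebulin 0.0307 and Ryr1 0.0399. The lengths are the exon unions of GENCODE release M21 and include exons that muscle may not use.

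Of the 36 genes, 21 passed the filter on low counts and were tested, and 15 with 8 to 84 counts over all libraries were not. In edgeR's test, adjusted by Benjamini-Hochberg over all 13505 tested genes, 0 of the 21 passed, and so did 0% of all genes. With p unadjusted and under 0.05 were 0 of 21, against 14.6% of all genes tested (8.26% higher and 6.35% lower in knockout). The adjusted p-values of the set ran from 0.352 to 0.986. Limma voom also called 0 of the 21, and DESeq2 called 0 of the 12 to which it gave an adjusted p. Of all genes, DESeq2 called 248 and voom 0.

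Log2 fold changes of the 21 were below 0 for 15 and above 0 for 6, with a median of -0.38, while 50.7% of all tested genes were below 0 and their median was -0.01. Only 8 of the 21 lay more than 1 standard error from 0, and the standard errors ran from 0.36 to 1.29. Single libraries moved this median. It was 0.08 without wildtype 2 and -0.01 without knockout 3, while it was -0.96 without knockout 1 and -0.88 without wildtype 3. Groups without overlap were found for 1 of 21 (Myl4), against 20.4% of all tested genes in both directions.

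**Figure D4:**
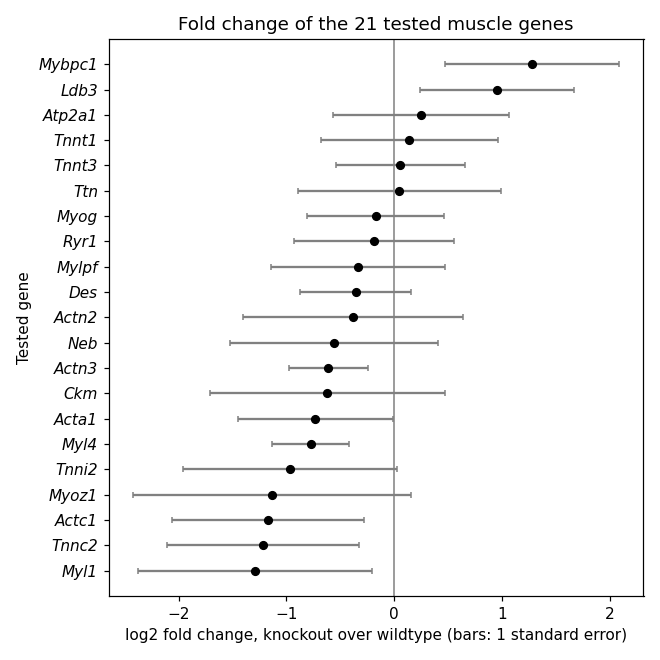
Log2 fold change of knockout over wildtype (horizontal axis) for the 21 tested muscle genes (vertical axis), with 1 standard error as bars. The values run from -1.29 for Myl1 to 1.28 for Mybpc1, and the bars of 13 genes cross 0.

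Spread between libraries of the same group was the main feature of the set. The biological coefficient of variation that edgeR estimated for each gene had a median of 66.6% over the 21 genes, with a range of 29.5% (Myl4) to 102.3% (Myoz1). Over all tested genes the median was 21.4%, and over the 6983 tested genes with a mean level in the range of the set (0.45 to 13.35 CPM) it was 29.1%. All 21 genes lay above both medians. Acta1 alone set the upper end of that range, and the next highest member, Actn3, averaged 4.49 CPM. The range thus also held genes more abundant than most of the set.

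Other muscle genes were taken from lists written from textbook knowledge. Of 39 further genes of fibre structure and metabolism, 13 were tested, 6 above and 7 below 0, with a median of 0.0, and 0 passed after adjustment over all genes. At an unadjusted p under 0.05 there was 1 of 13 higher and 1 lower, against 8.26% and 6.35% of all genes. Most fibre-restricted genes of this list were as scarce as the set, such as myoglobin (Mb), the oxygen store of muscle, with 10, 2 and 3 counts in the knockout libraries and 8, 3 and 0 in the wildtype libraries. Its summed level of 693.9 to 805.0 CPM came mostly from Tpm1 (504 CPM), a tropomyosin that non-muscle cells also make.

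The 1 lower gene was Tpm2, another tropomyosin, which measured 51.4, 42.7 and 42.0 CPM in the knockout libraries and 51.5, 85.4 and 74.3 CPM in the wildtype libraries. It was lower in every knockout library, narrowly so against wildtype 1 (log2 fold change -0.63 ± 0.20, adjusted p = 0.283, edgeR). Tpm2 was the only 1 of the 13 tested genes of this list without overlap, against 20.4% of all genes in both directions. Without wildtype 1 it passed, at -0.84 (adjusted p = 0.0412, edgeR). The 1 higher gene was Flnc, the muscle filamin, at 65.2 ± 25.5 CPM against 34.1 ± 14.4 CPM (0.93 ± 0.38, adjusted p = 0.320, edgeR). Fhl1, a LIM protein of muscle, differed little (-0.21 ± 0.16).

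Of 19 genes of the triad and calcium control 16 were tested, 9 above and 7 below 0, with a median of 0.08 and 0 past the adjusted threshold. Without adjustment 2 of 16 were higher and 1 lower, against 8.26% and 6.35% of all genes. Groups did not overlap in 2 genes above and 4 below, against 10.6% and 9.81% of all genes. Tmem38a, a potassium channel of the sarcoplasmic reticulum, measured 5.12 ± 0.813 CPM against 2.44 ± 0.491 CPM (1.06 ± 0.30), and Atp2a2, the pump of slow fibres and of many other cells, 201.9 ± 4.29 CPM against 141 ± 31.1 CPM (0.52 ± 0.19). Cav3, the caveolin of muscle membranes, had 7 to 11 counts in each knockout library and 25 to 27 in each wildtype library (-1.37 ± 0.52). Adjusted p-values of these 3 were 0.273, 0.302 and 0.308 in edgeR's test. The other 3 genes without overlap were Hrc, Cacnb1 and Stac3, all lower in the knockout libraries.

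Of 24 genes of satellite cells, myoblasts and the neuromuscular junction, 11 were tested, 8 above and 3 below 0, with a median of 0.20, and 0 had an unadjusted p under 0.05, against 14.6% of all genes. Mef2c, a partner of the myogenic factors that bone cells also express, was the most abundant at 131.5 ± 39.8 CPM against 174.5 ± 38.3 CPM. Cdh15, a cadherin of myoblasts, was at 17.7 ± 3.41 against 22.7 ± 4.22 CPM. Eya1, a coactivator upstream of the myogenic factors, was at 12.1 ± 2.77 against 7.90 ± 3.37 CPM. Pax7, which marks satellite cells, had 0 to 8 counts per library. Pax7, myoglobin and the next 4 genes were chosen for mention after their values were seen. In wildtype 2, the fusion protein Mymk had 24 counts, and the acetylcholine receptor subunit Chrna1, its clustering protein Rapsn and the adaptor Dok7 had 32, 29 and 19. In each of the other 5 libraries they had at most 7, 11, 6 and 7 counts. Other junction genes of the list did not share this. Musk, Chrnd, Chrng and Chrne had 0 counts in wildtype 2, where Musk had 11 in knockout 2. The receptor subunit Chrnb1 had 25 counts in wildtype 2, against 24 and 28 in knockout 1 and 2.

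By fibre type, 13 fast-fibre genes, all of them in the set, summed to 25.6, 12.2 and 8.72 CPM in knockout 1, 2 and 3 and 22.6, 35.8 and 11.5 CPM in wildtype 1, 2 and 3. The 6 developmental genes, 4 of them in the set, summed to 6.54, 3.96 and 2.39 CPM in the knockout libraries and 5.90, 19.4 and 4.12 CPM in the wildtype libraries. Wildtype 2 was highest in both. Slow-fibre genes outside the set that also occur in other cells, such as Atp2a2, set the sum of the 10 slow-fibre genes (153.0 to 253.6 CPM). The slow myosin Myh7 had 0 to 5 counts per library. Of 12 heart genes, Gata4, Nkx2-5, Myl7 and Nppb were at 0 in all libraries, and the list summed to 0.658 to 3.13 CPM.

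Markers of several other cell types shared part of the order of libraries seen in the muscle genes. Within the knockout group, the muscle sum and the sums of chondrocyte, macrophage, endothelial, neutrophil, erythroid, adipocyte and nerve markers were all highest in knockout 1 and lowest in knockout 3. Other lists did not follow this order. The osteoblast sum was 242400, 237700 and 351800 CPM in knockout 1, 2 and 3, highest in knockout 3. Sums of the triad list (835.6, 842.7 and 926.1 CPM) and the myoblast list (313.8, 332.7 and 378.3 CPM) rose from knockout 1 to 3. Tendon, smooth muscle, slow-fibre and heart sums were highest in knockout 2. The 13 chondrocyte markers summed to 26660, 15640 and 11830 CPM in knockout 1, 2 and 3 and 10100, 4070 and 3554 CPM in wildtype 1, 2 and 3. Of these, 13 of 13 tested were above 0, while 50.7% of all tested genes were below 0. At an unadjusted p under 0.05 (edgeR) 13 of 13 were higher, against 8.26% of all genes, and 0 passed after adjustment. The 14 macrophage markers summed to 450.1, 328.9 and 187.0 CPM in the knockout libraries and 160.5, 165.1 and 109.9 CPM in the wildtype libraries. The 12 endothelial markers summed to 255.8, 231.4 and 146.4 CPM in the knockout libraries and 147.8, 66.97 and 54.99 CPM in the wildtype libraries.

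Wildtype 3, low in muscle genes, was lowest in these 3 lists, while wildtype 2, highest in muscle genes, was the second lowest in chondrocyte and endothelial markers. Sums of the 10 neutrophil markers were 200.6, 83.81 and 58.9 CPM in the knockout libraries and 26.32, 20.66 and 57.8 CPM in the wildtype libraries. Those of 7 erythroid markers were 403.4, 322.5 and 49.94 CPM and 114.6, 17.53 and 114.7 CPM in the same order. The 8 adipocyte markers gave 59.76, 44.96 and 33.15 CPM in knockout and 46.12, 22.81 and 42.27 CPM in wildtype, and the 8 nerve markers 53.58, 47.33 and 28.22 CPM and 27.06, 18.99 and 19.17 CPM. Wildtype 2 was the lowest library in each of these last 4 lists. Tendon markers, of which there were 6, summed to 1609 to 1674 CPM in knockout and 872.7 to 1530 CPM in wildtype. The part of these cells in the values of the muscle genes was not tested.

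**Figure D5:**
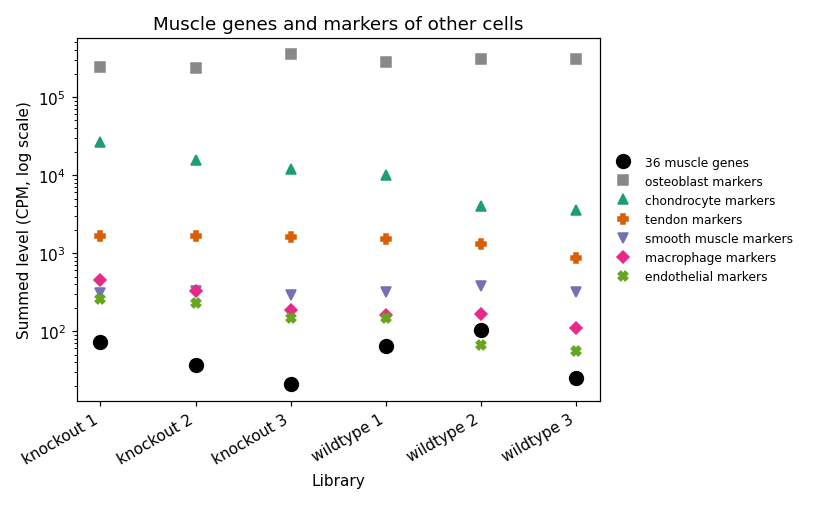
Summed level in CPM on a log axis (vertical) of the 36 muscle genes and of marker lists of other cells in each library (horizontal). The muscle sum is highest in wildtype 2 (102.8 CPM), where the chondrocyte sum is 4070 CPM, and low in knockout 3 (20.8 CPM), where the chondrocyte sum is 11830 CPM.

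Over the series as a whole, library totals ran from 13591925 to 20993962 counts. Cdc73 measured 14.4 ± 0.378 CPM in the libraries labelled knockout and 18.3 ± 4.84 CPM in wildtype (log2 fold change -0.36 ± 0.22, adjusted p = 0.428, edgeR). Wildtype 2 (12.8 CPM) lay below all 3 libraries labelled knockout. Reads outside the deleted exons would still be counted, so this level does not check the labels, and directions refer to the libraries as labelled. Without wildtype 1, edgeR called 409 genes of the whole table, and 0 of them were in the set.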

How the data were processed

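RNA was measured in 3 knockout and 3 wildtype libraries, with 13591925 to 20993962 counts each. The deposited values are raw counts of reads per Entrez gene ID with no normalization. Per the submitters' processing notes, the tools were CASAVA 1.7, Subread and featureCounts, and the build was mm10. The annotation, the strand setting and the treatment of reads that match several genes are steps not given in the sources used here. All 6 columns were matched to samples by name.

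Symbols came from RefSeq (25275 IDs) and GENCODE M21 (18), and 1886 IDs stayed unnamed but were kept in totals and tests. Knockout was compared with wildtype in edgeR 4.0.16 (R 4.3.3) with filterByExpr, TMM factors (0.813 to 1.09) and the two-sided quasi-likelihood test on 13505 genes, with Benjamini-Hochberg adjustment and a threshold of 0.05. The procedure was tested on simulated counts with the same spread for every gene and changes planted only above a minimum level. This does not measure how well changes would be found in genes as scarce and variable as the set. Standard errors are the fold change divided by the root of the F statistic. No 2 libraries matched within sampling noise (chi-square per degree of freedom 18.3 to 139.1). Alternatives were other scalings and filters, DESeq2 1.42.0, limma 3.58.1 voom with and without quality weights, a block for the replicate number, leaving out each library and wildtype 1 as the only control.

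The members and gene lists were chosen with earlier results of these data known. Values in every library are given for members whose mean reached 1 CPM and for those of smallest p, up to 3 in each direction. From each other muscle list, up to 4 genes of highest level and 2 of smallest p in each direction could be named, and from lists of other cells up to 2 of each. Open reading frames were aligned with Biopython 1.88.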

Additional observations from a re-analysis of the deposited data

How the results depend on the processing

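None of the set's genes with an adjusted p passed the threshold in the 16 alternatives (DESeq2 gave none for 9 of the 21), and the smallest adjusted p was 0.0847, without wildtype 1. Unadjusted p-values under 0.05 numbered 2 of 21 with library size alone (Actn3 and Myl4, against 21.9% of all genes), 1 of 36 without the filter (Myh8, 13.2%) and 1 of 26 with wildtype 1 as the only control (Myh8, 5.14%). When 1 library was left out they numbered 0 to 5, with 5 of 23 without wildtype 3 (10.3% of all genes), 3 of 22 without knockout 1 (6.89%) and 3 of 22 without wildtype 1 (28.7%). Of all genes, 24 passed without the filter, 248 with DESeq2 and 0 to 409 when 1 library was left out, the 409 without wildtype 1. With the replicate block 236 genes passed, 1 of 21 had an unadjusted p under 0.05 (Mybpc1, against 16% of all genes), Tnnt3 was at -0.04, and Flnc, outside the set, passed at 0.95. Deviations of libraries with the same number correlated at 0.115, -0.074 and 0.222. Knockout 1 and 3 correlated best with the wildtype library of their own number, and knockout 2 with wildtype 1 (0.347). These few correlations cannot decide whether the numbers pair the libraries. The median of the set ran from -0.96 to 0.08 over the libraries left out, and library size alone moved it to -0.54 while moving that of all genes to -0.21.

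The sign changed in 39 of 331 alternative values, in 12 of the 21 genes, none of which had been called, and the cause was not tested. With wildtype 1 as the only control the log2 fold changes were 0.73 for Myog, 0.74 for Actc1, -0.21 for Tnnt1, -0.60 for Tnnt3, -0.35 for Ttn and -0.03 for Atp2a1. With library size alone they were -0.05 for Tnnt1, -0.10 for Tnnt3 and -0.12 for Ttn. With voom they were 0.05 for Myog, 0.27 for Mylpf, -0.03 for Tnnt3, 0.54 for Actn2 and 0.23 for Ckm, and with quality weights 0.21 for Myog, 0.18 for Mylpf, 0.40 for Actn2 and 0.17 for Ckm. Over the libraries left out, the ranges were -0.51 to 0.44 for Myog, -0.96 to 0.22 for Mylpf, -1.92 to 0.62 for Actc1, -0.39 to 0.57 for Tnnt1, -0.79 to 0.57 for Tnnt3, -1.17 to 0.40 for Neb, -0.97 to 0.0 for Actn2, -1.21 to 0.01 for Des, -0.54 to 0.59 for Ttn, -0.55 to 0.25 for Ryr1 and -0.48 to 0.78 for Atp2a1. Without a change of sign they were -1.67 to -0.18 for Acta1, -2.37 to -0.12 for Tnnc2, -2.20 to -0.11 for Myl1, -2.17 to -0.20 for Tnni2, -3.83 to -0.31 for Myoz1, -1.38 to -0.16 for Ckm, -0.86 to -0.17 for Actn3, -0.96 to -0.54 for Myl4, 0.71 to 2.72 for Mybpc1 and 0.59 to 1.99 for Ldb3. The 15 genes not tested had 8 to 84 counts over all libraries. The spread between libraries (median 66.6%) was wider than for all tested genes with means of 0.45 to 13.35 CPM (29.1%).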

Other observations

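Smooth muscle genes mark the walls of vessels and other contractile cells. Their sum was 309.5, 328.4 and 292.9 CPM in knockout 1, 2 and 3 and 316.3, 374.4 and 315.2 CPM in wildtype 1, 2 and 3. Like the sum of the sarcomere genes, it was highest in wildtype 2 and lowest in knockout 3. The libraries between were ordered differently. Knockout 1 lay below wildtype 3 here, while the sarcomere genes summed to 73.2 CPM in knockout 1 and 25.0 CPM in wildtype 3. The spread was also narrower, since the sarcomere genes ran from 20.8 CPM in knockout 3 to 102.8 CPM in wildtype 2. Of the 12 smooth muscle genes 8 were tested, 4 above and 4 below 0, with a median of 0.0, and 0 passed edgeR's test after adjustment. At an unadjusted p under 0.05 there were 2 higher and 1 lower of 8, against 8.26% and 6.35% of all genes tested. Myh11, the smooth muscle myosin, measured 7.08, 9.10 and 3.46 CPM in knockout 1, 2 and 3 and 3.06, 1.46 and 1.37 CPM in wildtype 1, 2 and 3 (log2 fold change 1.72 ± 0.44, adjusted p = 0.273, edgeR, and adjusted p = 0.0279 with DESeq2). Without wildtype 1 it passed edgeR's test, at 2.19 (adjusted p = 0.0481). Cnn1, a calponin of smooth muscle, measured 6.36, 5.70 and 2.72 CPM in the knockout libraries and 2.01, 1.74 and 1.97 CPM in the wildtype libraries (1.37 ± 0.38, adjusted p = 0.273, edgeR). Both were higher in every knockout library. Acta2, the smooth muscle actin that osteoblasts and fibroblasts also make, measured 87.8 ± 7.66 CPM against 118.1 ± 23.7 CPM (-0.43 ± 0.18, adjusted p = 0.332, edgeR). Endothelial markers summed to 146.4 to 255.8 CPM in knockout and 55.0 to 147.8 CPM in wildtype, and their part in these values was not tested.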
